A study of Homo sapiens with 16 samples.

Results

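The collagen genes are the 44 rows of the deposited count table, of 30813 genes in all, that are annotated as protein coding and carry a symbol made of COL, a number, A and a number. Membership rests on name and biotype alone, but this family of genes was picked with earlier results of these data known. By class, 11 encode fibrillar chains, 6 encode type IV chains of basement membranes and 27 encode other chains. The RNA came from DR A375 and 451Lu BR, drug-resistant derivatives of 2 human melanoma cell lines with activated BRAF, called A375 and 451Lu below. All groups of A375 had been selected for resistance; on drug they received dabrafenib (a BRAF inhibitor, 0.5 µM) with trametinib (a MEK inhibitor, 0.05 µM), and off drug they received DMSO for 6, 24 or 48 h. All groups of 451Lu were likewise resistant; on drug they received dabrafenib (1 µM), and off drug DMSO for 24, 72 or 120 h. The labels differ on 451Lu: the treatment notes name dabrafenib alone, whereas the source name gives resistance to dabrafenib and trametinib. Cells were grown in DMEM with serum. Each of the 8 groups had 2 libraries, and no source says whether they are separate cultures. A p-value here speaks only of the spread between libraries of the same group, estimated over all groups of a fit. That spread may be technical. On-drug cells were sampled once per line, hence the effects of withdrawal and of time in culture cannot be told apart, and line and drug cannot be told apart either.

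Collagens are secreted or membrane-bound proteins built from 3 chains wound into a triple helix. Fibrillar collagens form the cables of connective tissue, type IV collagen forms the sheet-like network of basement membranes, and type VI collagen forms fine beaded filaments near the cell surface. The fibril-associated collagens (FACITs) sit on or beside fibrils, the multiplexins (types XV and XVIII) lie in or near basement membranes, and a few collagens span the cell membrane. Melanoma cells are known to make some of these proteins themselves, besides the collagen laid down by fibroblasts around a tumour.

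Library totals ran from 9714190 to 16691725 counts. Levels are CPM, counts scaled to a common library size, on one TMM scale over all 16 libraries, and log2 fold changes come from edgeR's quasi-likelihood F test within a line, with Benjamini-Hochberg adjustment over all genes tested and a threshold of 0.05. TMM takes most genes as unchanged, so levels are relative to other genes and are not amounts per cell. Bulk RNA cannot tell fewer cells of a kind from less RNA per cell. The 8 melanoma markers of the list used here all had counts in every group: their summed level went from 5111 and 5234 CPM on drug to 2090 and 2306 CPM at 48 h in A375, and from 11325 and 11913 CPM to 1346 and 1471 CPM at 120 h in 451Lu. At these times 7 were called lower in A375 and 6 in 451Lu, and S100A1 was the 1 called higher in each, from 81.2 and 83.9 CPM on drug to 1117 and 1240 CPM in A375 and from 84.7 and 91.4 CPM to 333 and 325 CPM in 451Lu. Mitochondrial genes took 4.81% to 6.11% of counts on drug and 2.60% to 5.08% off drug, and FN1 alone took 6.15% and 6.25% of counts in 451Lu at 120 h against 0.0671% and 0.0741% on drug. The part of these shares in the results was not tested. One library stood apart. In 451Lu at 72 h, replicate 2 held 142 counts on 43 genes other than collagens that had at least 10 CPM in every A375 library and at most 3 counts over the other 7 libraries of 451Lu, which is 0.782% of their level in A375. The other 451Lu libraries gave 0.0158% to 0.0744% by the same rule. Results that rest on that library are given with and without it.

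The 5 stretches printed here lie in front of the RefSeq starts of genes to which the results return. COL4A1 and COL4A2 share one, COL5A3 and COL6A3 had large rises in both lines, COL6A2 was among the most abundant collagens per kilobase in 451Lu, and COL19A1 rose in both lines. They were not chosen by rank, since COL22A1, COL13A1 and COL10A1 had larger changes than COL6A2 and COL19A1. Of the 44 members, 32 had an entry in RefSeq's promoter table for build GRCh38. COL4A1 and COL4A2 start head to head, so the first sequence is the whole stretch of 126 bases between their 2 starts (chr13:110307158-110307283, plus strand), and the others are the 250 bases before the start of COL5A3 (chr19:10010505-10010754, minus strand), COL6A3 (chr2:237414165-237414414, minus strand), COL6A2 (chr21:46097862-46098111, plus strand) and COL19A1 (chr6:69866306-69866555, plus strand). All these starts are RefSeq's, and the deposited annotation differs. In it COL4A2 starts at 110305812, so the shared stretch lies inside that gene. COL6A3 starts there at 237414375 on the minus strand, so most of its stretch lies inside the gene. COL6A2 starts there at 46098097, so the last bases of its stretch do too. Capitals mark exact matches on either strand to the CCAAT box (CCAAT), the GC box (GGGCGG) or the TATA box (TATAAA). AP-1 (TGANTCA) and TEAD core (GGAATG) letters were searched as well.
COL4A1 and COL4A2: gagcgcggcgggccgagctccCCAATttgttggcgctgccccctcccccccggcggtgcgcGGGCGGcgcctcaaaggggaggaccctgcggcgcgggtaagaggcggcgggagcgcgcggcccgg
COL5A3: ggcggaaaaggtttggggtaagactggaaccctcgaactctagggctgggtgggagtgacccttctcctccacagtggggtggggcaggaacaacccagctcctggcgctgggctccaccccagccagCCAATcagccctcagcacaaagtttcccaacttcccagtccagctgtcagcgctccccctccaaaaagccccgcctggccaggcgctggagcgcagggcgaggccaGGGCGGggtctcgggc
COL6A3: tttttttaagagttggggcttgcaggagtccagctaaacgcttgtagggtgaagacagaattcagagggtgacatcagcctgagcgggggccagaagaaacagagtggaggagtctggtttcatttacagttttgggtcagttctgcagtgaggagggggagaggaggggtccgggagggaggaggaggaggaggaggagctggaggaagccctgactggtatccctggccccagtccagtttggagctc
COL6A2: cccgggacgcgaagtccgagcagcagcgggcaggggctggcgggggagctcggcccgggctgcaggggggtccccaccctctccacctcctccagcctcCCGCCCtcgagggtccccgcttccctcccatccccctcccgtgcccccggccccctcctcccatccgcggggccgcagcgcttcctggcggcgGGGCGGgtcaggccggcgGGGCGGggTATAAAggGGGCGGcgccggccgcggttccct
COL19A1: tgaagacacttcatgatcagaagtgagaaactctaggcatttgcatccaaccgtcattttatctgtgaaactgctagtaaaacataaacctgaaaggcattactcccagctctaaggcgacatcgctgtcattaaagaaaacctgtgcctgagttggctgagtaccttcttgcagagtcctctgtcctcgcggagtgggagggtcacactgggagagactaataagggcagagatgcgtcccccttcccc

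The COL4A1 and COL4A2 stretch held 1 CCAAT box and 1 GC box, which 21.1% and 34.6% of 35116 RefSeq promoters of that length hold. COL5A3 held 1 of each as well, against 32.0% and 42.6% of promoters at 250 bases, and COL6A2 held 4 GC boxes and 1 TATA box (10.7% of promoters). COL6A3 and COL19A1 held none of the searched letters, and AP-1 and TEAD core letters (6.57% and 11.9% of promoters) were in none of the 5 stretches. A match is a string of letters, not a bound site.

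Collagen genes took a small share of the RNA, and the share moved differently in the 2 lines. In A375 they took 0.108% and 0.109% of all counts on drug, 0.131% and 0.126% at 6 h, 0.147% and 0.142% at 24 h and 0.134% and 0.127% at 48 h. In 451Lu the share went from 0.0337% and 0.0358% on drug to 0.0776% and 0.0687% at 24 h, 0.225% and 0.218% at 72 h and 0.310% and 0.274% at 120 h. No off-drug library overlapped the on-drug libraries of its line. At 120 h the 95% Wilson intervals were 0.308% to 0.313% and 0.271% to 0.277%, for counting error only; the gap between these replicates is wider than that.

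The classes had different parts in this. Basement membrane genes made up 37.3% of collagen counts in both on-drug libraries of A375 and 29.1% to 32.5% off drug, while in 451Lu they had 0 to 4 counts in 7 libraries and 48 counts in replicate 2 at 72 h, the library that stood apart. Of all counts in A375 they took 0.0405% and 0.0407% on drug and 0.0418% and 0.0395% at 48 h, which overlapped. Fibrillar genes took 0.0373% and 0.0376% of all counts in A375 on drug and 0.0361% and 0.0347% at 48 h, 0.946 times the on-drug mean, and this ratio was 1.10 when TMM-adjusted library sizes were the denominator. In 451Lu fibrillar genes went from 0.00445% and 0.00478% to 0.0405% and 0.0374% of counts at 120 h, 8.43 times as much, or 10.3 times with TMM-adjusted sizes. The share of genes of the other classes went to 1.77 times the on-drug mean in A375 at 48 h and to 8.41 times in 451Lu at 120 h. Type VI genes alone went from 7.58% and 7.70% of collagen counts to 24.3% and 24.5% in A375, and from 43.6% and 44.9% to 75.2% and 74.3% in 451Lu. These shares are a description with no test.

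**Figure D1:**
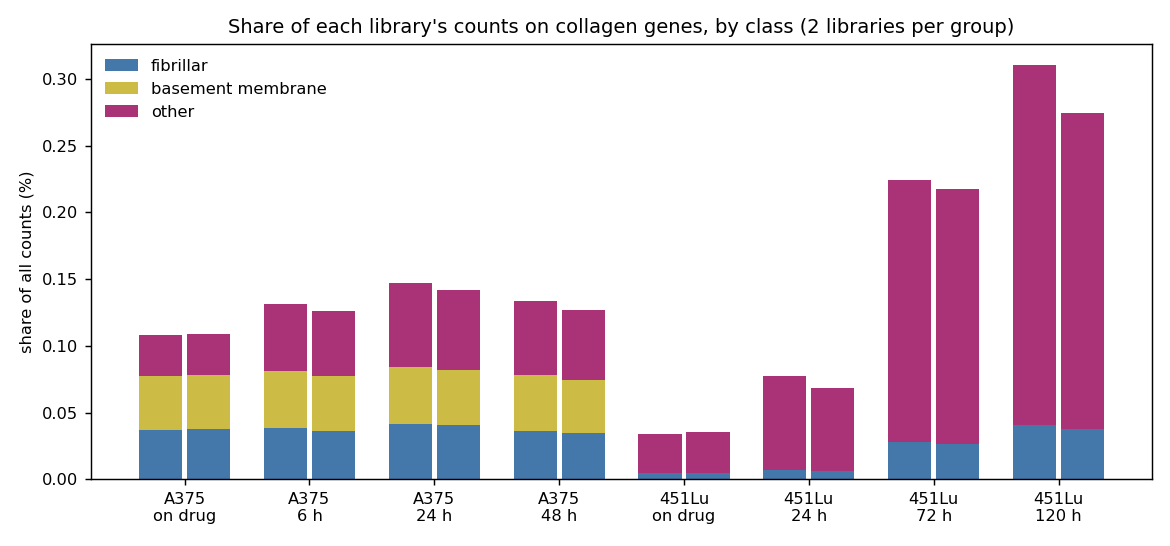
Share of all counts (y axis, percent) that fell on fibrillar, basement membrane and other collagen genes, one bar per library and 2 libraries per group. The 451Lu bars reach 0.310% and 0.274% at 120 h and hold almost no basement membrane counts, whereas all A375 bars lie between 0.108% and 0.147%.

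Of the 44 members, 27 passed the filter on low counts in A375, 22 in 451Lu and 20 in both. The filter keeps genes that are high in some group, so the counts below describe the genes tested and not all members. In A375 at 6 h 15 collagen genes were called higher and 6 lower, where 73.3% of all 14449 genes tested were called (35.1% higher, 38.1% lower). At 24 h it was 13 higher and 12 lower (background 72.6%, as 36.2% higher and 36.3% lower), and at 48 h 14 higher and 11 lower (72.6%, as 36.6% and 36%). The median log2 change of the tested members was 0.29, 0.00 and 0.46, beside -0.06, -0.02 and 0.00 for all genes. In either direction 21, 25 and 25 of the 27 were called, and collagen genes as a set were not tested against the background. With at least a 4-fold change, 5, 8 and 11 of the 27 were called, where 6.39%, 7.11% and 8.02% of all genes were.

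In 451Lu at 24 h 11 of 22 collagen genes were called higher and 4 lower (background 54.1% of 13851 genes, as 29.2% higher and 24.9% lower), and the lower count was 2 without replicate 1 of the 24 h group. At 72 h 15 were higher and 4 lower (67.7%, as 34.2% and 33.4%), and the counts without replicate 2 were also 15 and 4, but not of the same genes. Without it the calls of COL16A1 (higher) and COL5A2 (lower) were lost, COL9A3 was called lower, and COL5A1, which passed the filter on low counts only in that fit, was called higher. At 120 h 16 were higher and 4 lower (73.8%, as 37.3% and 36.6%). The medians of the tested members were 1.06, 2.07 and 2.71, beside 0.03, 0.00 and 0.00 for all genes, and they stayed the same with members at 0 on drug set to their lower bounds. At least a 4-fold change was called for 5, 12 and 13 of the 22, against 6.04%, 11.3% and 14.7% of all genes. Split by class, 3 of 5 fibrillar genes and 13 of 17 other genes were higher at 120 h, and no basement membrane gene was tested. In A375 at 48 h 4 of 7 fibrillar, 2 of 4 basement membrane and 8 of 16 other genes were higher, and 3, 2 and 6 were lower.

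**Figure D2:**
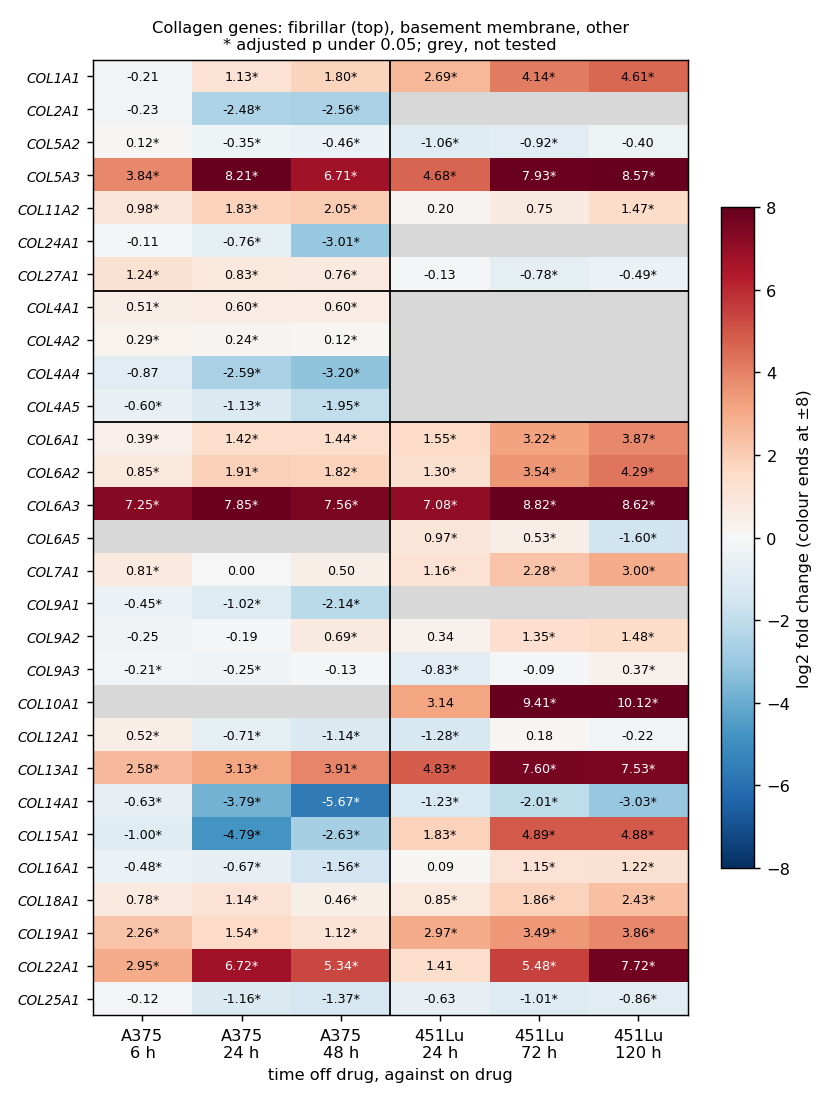
Log2 fold change off drug against on drug (colour and number, asterisk for an adjusted p under 0.05) for the 29 collagen genes tested in at least 1 line, with 3 times per line; grey cells were not tested. COL6A3, COL5A3 and COL22A1 carry the largest rises that both lines share, COL15A1 has opposite signs in the lines, and values of COL10A1 and COL13A1 in 451Lu rest on 0 counts on drug and depend on edgeR's prior count.

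Type VI collagen is made of one chain each from COL6A1, COL6A2 and COL6A3, and the chain from COL6A3 is needed for the assembled protein. COL6A3 (ENSG00000163359, chromosome 2, 237324003 to 237414375, minus strand) was nearly silent on drug in both lines and rose at the first time sampled in each. In A375 it had 0.497 and 0.512 CPM on drug, 80.2 and 80.3 CPM at 6 h, 120.3 and 122 CPM at 24 h and 103 and 95.1 CPM at 48 h. In 451Lu it had 0.817 and 1.22 CPM on drug, 156 and 121 CPM at 24 h, 552 and 392 CPM at 72 h and 459 and 370 CPM at 120 h. On-drug and off-drug libraries were far apart in both lines, and in 451Lu the libraries of 72 h and 120 h overlapped. The log2 change was 7.25 ± 0.14 (SE) at 6 h in A375 (adjusted p = 3.03e-31) and 8.62 ± 0.26 at 120 h in 451Lu (adjusted p = 2.54e-14). From 72 h to 120 h it was -0.20 ± 0.13 (adjusted p = 0.267), which did not pass the test.

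COL6A1 and COL6A2, which lie close together on chromosome 21 (45981737 to 46005050 and 46098097 to 46132849, both plus strand), were already present on drug. COL6A1 had 45.0 and 46.9 CPM on drug in A375, 64.9 and 58.2 at 6 h, 132 and 119 at 24 h, and 127 and 127 at 48 h. COL6A1 in 451Lu went from 75.3 and 83.1 CPM to 246 and 209 at 24 h, 716 and 756 at 72 h, and 1228 and 1122 at 120 h. Each off-drug pair was above the on-drug pair, and in 451Lu every later pair was above the earlier one. COL6A2 went from 23.2 and 21.8 CPM to 41.6 and 41.8, 90.9 and 83.1, then 80.7 and 82.2 CPM in A375. COL6A2 in 451Lu had 46.0 and 52.1 CPM on drug, then 125 and 112, 571 and 568, and 1061 and 877 CPM. The log2 changes at the last times were 1.44 ± 0.06 and 1.82 ± 0.07 in A375 for COL6A1 and COL6A2, and 3.87 ± 0.08 and 4.29 ± 0.09 in 451Lu, with adjusted p of at most 9.43e-21 in A375 and 8.53e-16 in 451Lu.

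On drug the RNA of the partners was present and that of COL6A3 was nearly absent, and counts of the partners relative to COL6A3 fell off drug. These are ratios of RNA, and the protein chains were not measured. Per kilobase of the longest coding transcript, COL6A1 counts were 230 and 232 times those of COL6A3 in A375 on drug, with 9 and 8 COL6A3 counts behind these ratios, and 2.05 and 1.84 times at 6 h. In 451Lu the ratio was 234 and 173 on drug, with 12 and 21 COL6A3 counts, 3.99 and 4.40 at 24 h, and 6.79 and 7.68 at 120 h. COL6A1 over COL6A2 stayed between 0.946 and 1.76 in all 16 libraries. COL6A5, whose chain can take the place of the COL6A3 chain, had counts in 451Lu alone apart from single counts: 18.8 and 17.0 CPM on drug, 34.0 and 34.6 at 24 h, 26.3 and 25.1 at 72 h, and 5.06 and 6.95 at 120 h. It was thus above the on-drug libraries at 24 h and 72 h and below them at 120 h, with log2 changes of 0.97 ± 0.10, 0.53 ± 0.11 and -1.60 ± 0.14 and adjusted p of 6.43e-07, 0.00052 and 2.88e-08. COL6A6 had 2 counts in all.

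**Figure D3:**
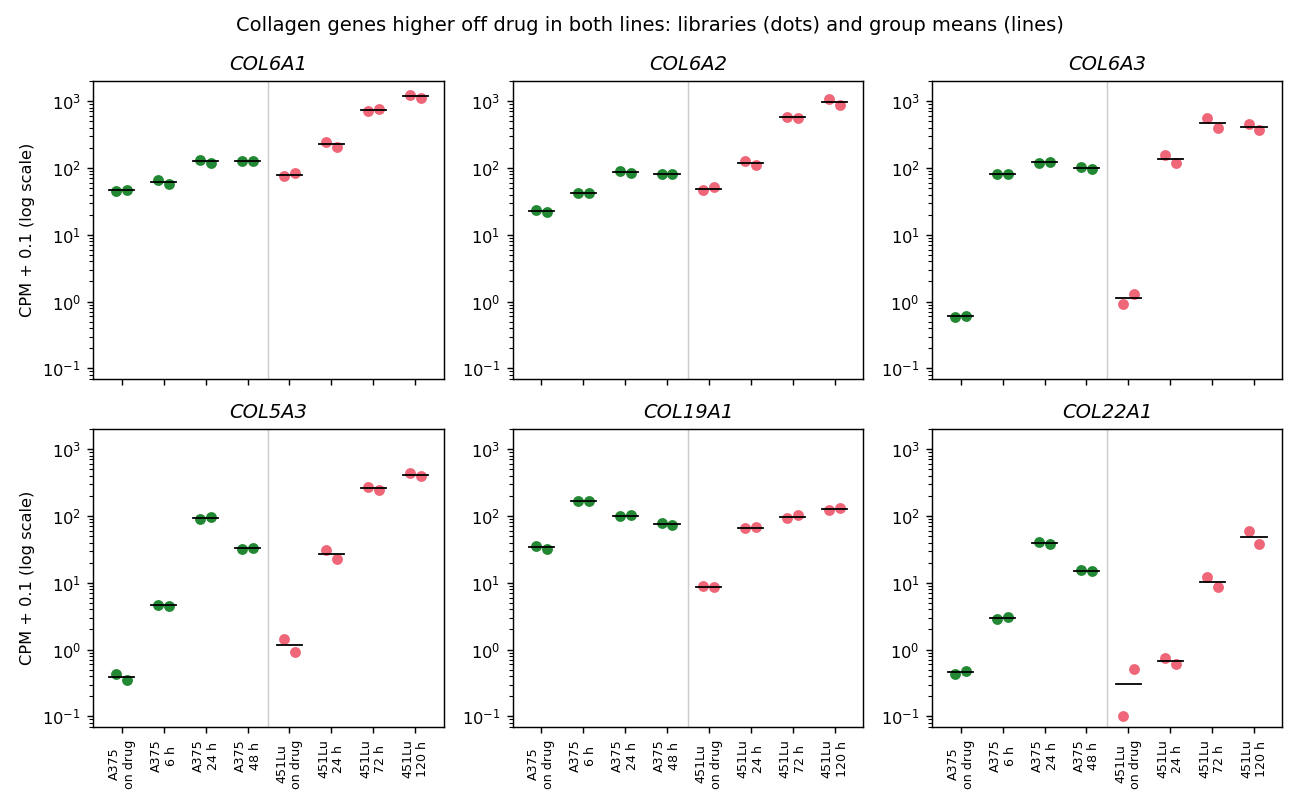
Levels of 6 collagen genes in every library (dots; CPM + 0.1 on a log axis) with group means (lines), A375 in green and 451Lu in red. COL6A3 goes from 0.497 and 0.512 CPM to 80.2 and 80.3 CPM within 6 h in A375, while COL5A3 and COL22A1 peak at 24 h in A375 and at 120 h in 451Lu.

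Among the fibrillar genes COL5A3 had the largest change. It encodes a minor chain of type V collagen, which joins type I collagen in fibrils and regulates their width (ENSG00000080573, chromosome 19, 9959561 to 10010471, minus strand). In A375 COL5A3 had 0.331 and 0.256 CPM on drug, 4.60 and 4.38 at 6 h, 89.6 and 95.9 at 24 h and 32.3 and 33.1 at 48 h. In 451Lu it had 1.36 and 0.812 CPM on drug, 30.8 and 23.0 at 24 h, 275 and 248 at 72 h and 433 and 396 at 120 h. No 2 groups of a line overlapped. The rise was largest at 24 h in A375, with a log2 change of 8.21 ± 0.15 (adjusted p = 3.2e-32), and the fall from 24 h to 48 h was -1.5 ± 0.07 (adjusted p = 7.77e-19). In 451Lu the log2 change was 8.57 ± 0.16 at 120 h (adjusted p = 1.55e-16).

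Of the other type V genes, COL5A2 was called lower at 24 and 72 h in 451Lu, and COL5A1 had few counts. COL5A2, the usual second chain, was the most abundant collagen per kilobase in A375 on drug, at 274 and 269 CPM, with 311 and 294 at 6 h, 222 and 214 at 24 h and 205 and 200 at 48 h. Its level in 451Lu was lower by 6.54 ± 0.09 log2 units on drug (adjusted p = 4.97e-28), with 3.20 and 2.67 CPM on drug, 1.22 and 1.54 at 24 h, 1.57 and 1.497 at 72 h and 2.06 and 2.41 at 120 h. The A375 changes were 0.12 ± 0.04, -0.35 ± 0.05 and -0.46 ± 0.05 on the log2 scale (adjusted p = 0.0206, 1.77e-08 and 8.06e-11), and the call at 6 h was lost without replicate 1 of that group (adjusted p = 0.249) or either on-drug library (0.055 and 0.117). COL5A2 in 451Lu was called lower at 24 h (-1.06 ± 0.27, adjusted p = 0.00366) and 72 h (-0.92 ± 0.29, adjusted p = 0.00978) and not at 120 h (-0.40 ± 0.25, adjusted p = 0.162). The 24 h call was lost without replicate 1 of the 24 h group (adjusted p = 0.0554). The 72 h call was lost without replicate 2 of that group, the library that stood apart (adjusted p = 0.0531), and without replicate 1 on drug (adjusted p = 0.0619). COL5A1, the main type V chain, had at most 9 counts in any library and was not tested with all libraries in the fit. Its counts in 451Lu were 0 on drug, 3 at 24 h, 11 at 72 h and 18 at 120 h over both libraries, at least 6.19-fold more than on drug at 72 h and at least 8.70-fold more at 120 h, for counting error only. In A375 it had 2 counts on drug and 0 off drug.

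The classical interstitial collagens were close to absent. COL1A2, the second chain of type I collagen, had 0 to 6 counts per library, and COL3A1, the type III chain, 0 to 3. COL1A1, the first chain of type I, had 0.441 and 0.448 CPM in A375 on drug, 0.426 and 0.358 at 6 h, 0.965 and 1.06 at 24 h and 1.76 and 1.47 at 48 h. In 451Lu it had 0.136 and 0.464 CPM on drug, 2.44 and 1.54 at 24 h, 6.63 and 4.79 at 72 h and 9.94 and 5.79 at 120 h. COL1A1 was therefore higher at the last time in both lines, by 1.80 ± 0.41 log2 units in A375 (adjusted p = 0.000183) and 4.61 ± 0.42 in 451Lu (adjusted p = 4.9e-08). Without replicate 2 on drug the 451Lu changes at 24, 72 and 120 h were 3.82, 5.27 and 5.74 in place of 2.69, 4.14 and 4.61. In A375 at 24 h the call (1.13 ± 0.43, adjusted p = 0.0199) was lost without any one of the 4 libraries compared, with adjusted p from 0.0655 to 0.0906.

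COL11A2, a chain of type XI collagen known from cartilage, rose in A375 from 18.2 and 19.5 CPM on drug to 39.5 and 36.9 at 6 h, 73.1 and 63.6 at 24 h and 78.4 and 81.7 at 48 h. In 451Lu it was low, at 1.02 and 0.986 CPM on drug, 1.15 and 1.11 at 24 h, 1.01 and 2.29 at 72 h and 2.48 and 3.18 at 120 h. The A375 change at 48 h was 2.05 ± 0.08 (adjusted p = 9.61e-23), and in 451Lu the 120 h change was 1.47 ± 0.34 (adjusted p = 0.00107). The 72 h value in 451Lu, 0.75 ± 0.40 (adjusted p = 0.106), was -0.01 without replicate 2 of that group and 1.18 with adjusted p = 0.0193 without replicate 1.

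COL27A1, a fibrillar chain known from cartilage, went in opposite directions in the lines. A375 had 13.2 and 15.1 CPM on drug, 36.8 and 31.8 at 6 h, 26.4 and 25.0 at 24 h and 27.0 and 22.1 at 48 h. In 451Lu it went from 37.0 and 40.7 CPM to 34.3 and 35.6, 22.6 and 22.6, then 28.4 and 27.4 CPM. All A375 off-drug libraries were above those on drug, and all 451Lu off-drug libraries were below. The log2 change was 1.24 ± 0.10 at 6 h in A375 (adjusted p = 2.75e-13), and it fell by 0.78 ± 0.09 at 72 h in 451Lu (adjusted p = 1.04e-06).

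COL24A1 and COL2A1, the cartilage type II chain, passed the filter on low counts in A375 and not in 451Lu, where COL24A1 had 3 counts over all 8 libraries and COL2A1 had 0. COL24A1 had 4.03 and 4.35 CPM on drug, 4.34 and 3.58 at 6 h, 2.83 and 2.13 at 24 h and 0.352 and 0.690 at 48 h, with a log2 change of -3.01 ± 0.33 at the last time (adjusted p = 8.23e-10). COL2A1 had 0.993 and 0.576 CPM on drug, 0.852 and 0.536 at 6 h, 0.121 and 0.164 at 24 h and 0.088 and 0.172 at 48 h. Its 24 h change was -2.48 ± 0.63 (adjusted p = 0.000737). At 48 h 3 counts stood against 27 on drug, a 6.13-fold lower level with a counting interval of 1.88 to 31.5, and DESeq2 gave adjusted p = 0.0556. For both genes the 48 h libraries lay below the on-drug ones.

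The type IV genes were a feature of A375. COL4A1 and COL4A2 encode the chains of the ubiquitous basement membrane network and lie head to head on chromosome 13 (110148963 to 110307149, minus strand, and 110305812 to 110513027, plus strand), with the stretch between their RefSeq starts printed above. COL4A1 had 102 and 99.3 CPM on drug in A375, 143 and 152 at 6 h, 160 and 153 at 24 h and 158 and 153 at 48 h. COL4A2 had 207 and 205 CPM on drug, 267 and 249 at 6 h, 257 and 243 at 24 h and 233 and 226 at 48 h. On the TMM scale every off-drug library lay above the on-drug pair for both genes. The rise was modest: at 48 h it was 0.60 ± 0.05 log2 units for COL4A1 (adjusted p = 1.75e-12) and 0.12 ± 0.05 for COL4A2 (adjusted p = 0.0219), the latter not called without either on-drug library (adjusted p = 0.0663 and 0.0952) nor with a minimum count of 30 (adjusted p = 0.0676). Neither gene passed a test against a 1.5-fold change. For COL4A2 the direction at 48 h depends on the TMM factors, which were 1.20 and 1.21 on drug and 1.05 and 1.02 at 48 h. Over unscaled library totals COL4A2 was lower at 48 h (2645 of 10863255 and 2624 of 11359331 counts) than on drug (3751 of 15146068 and 3204 of 12889659). Per kilobase, COL4A2 was 2.06 and 2.105 times COL4A1 on drug and 1.497 and 1.502 times at 48 h. In the deposited annotation the 2 genes overlap at their starts on opposite strands, and the strand setting of the counting is not given in the sources used here, so their counts are uncertain there.

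COL4A5, whose chain forms other type IV networks, fell in A375. It had 28.0 and 30.4 CPM on drug, 20.4 and 19.2 at 6 h, 12.8 and 14.8 at 24 h and 8.62 and 6.81 at 48 h. No 2 groups overlapped, and the log2 change reached -1.95 ± 0.12 (adjusted p = 7.5e-17). COL4A4, a low gene, had 0.883 and 0.832 CPM on drug, 0.511 and 0.447 at 6 h, 0.241 and 0 at 24 h and 0.088 and 0.0862 at 48 h. At 48 h 2 counts stood against 29, a 9.87-fold lower level with an interval of 2.50 to 85.3, and the 24 h log2 change of -2.59 was -6.53 without replicate 1 and -1.83 without replicate 2 of that group. COL4A3 and COL4A6 had 3 and 2 counts in all libraries together.

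In 451Lu the type IV genes were at the edge of detection. COL4A1 had 0 or 1 count in each on-drug library, and COL4A2 had 1 count in all on drug, against 3404 and 6955 in A375, ratios of 3221 (counting interval 578 to 127263) and 6581 (1181 to 259983). COL4A5 had 0 counts on drug, at least 310-fold below A375. In replicate 2 at 72 h COL4A2 had 34 counts, COL4A1 7 and COL4A5 6, while replicate 1 of that time had 0 for all 3. In that library the 43 genes other than collagens picked for being read in A375 and nearly absent from the other 451Lu libraries stood at 0.782% of their A375 level, and the part of this in the type IV counts was not tested.

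**Figure D4:**
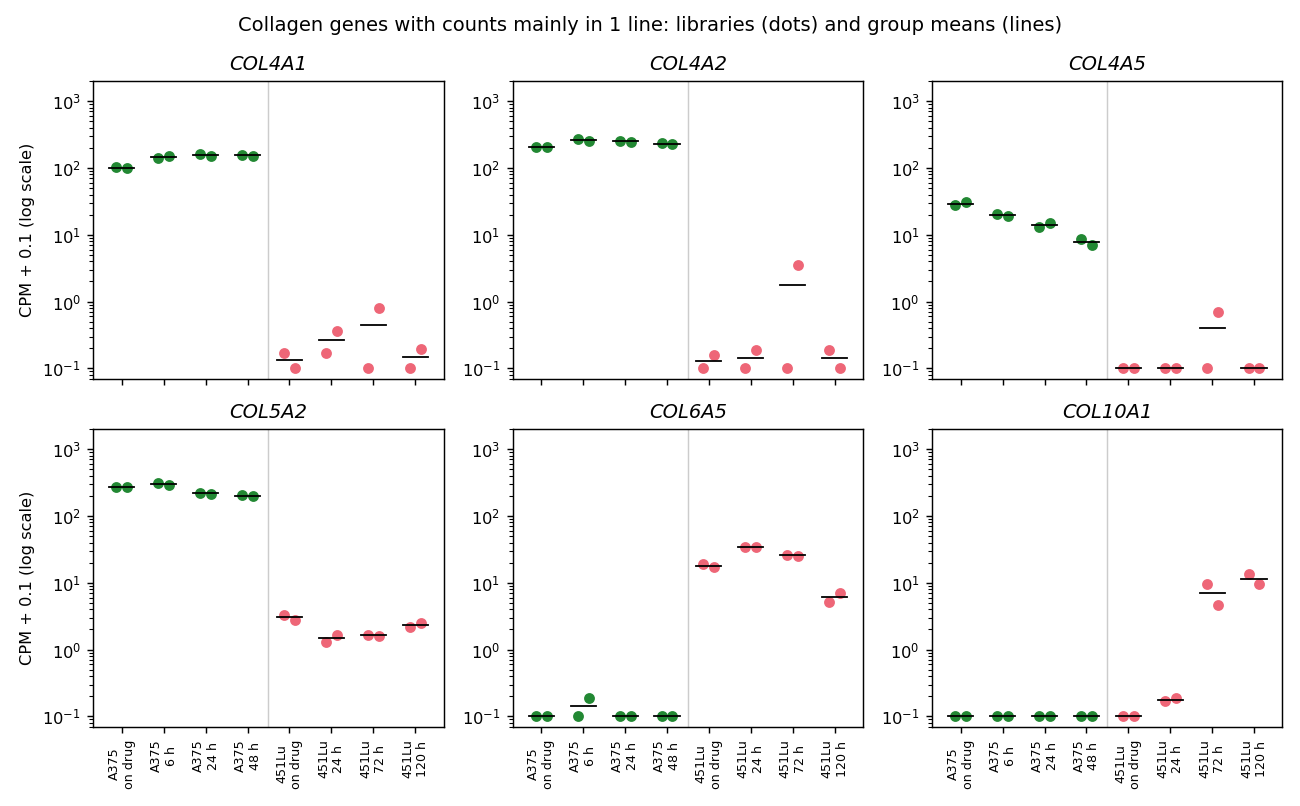
Levels of 6 collagen genes read mainly in 1 line, in every library (dots; CPM + 0.1 on a log axis) with group means (lines), A375 in green and 451Lu in red. COL4A1, COL4A2 and COL4A5 are near the floor in 451Lu apart from replicate 2 at 72 h (COL4A2 3.39 CPM), and COL10A1 has counts in 451Lu alone.

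Across all members, 19 of 29 were higher in A375 than in 451Lu on drug and 6 were lower, where 77.2% of 15481 genes differed (37.9% higher in A375, 39.3% lower). At least 4-fold, 14 were higher in A375 and 1, COL6A5, was lower (19.3% of all genes in either direction). Per kilobase the leading genes on drug were COL5A2 (38.4 CPM per kilobase), COL4A2 (31.7) and COL9A3 (28.4) in A375, and COL9A3 (46.5), COL6A1 (18.7) and COL6A2 (14.2) in 451Lu. At the last time they were COL4A2 (35.3), COL6A1 (29.98) and COL5A2 (28.6) in A375, and COL6A2 (280), COL6A1 (277) and COL5A3 (67.1) in 451Lu. COL6A1 and COL6A2 at 120 h did not differ beyond the spread of the libraries, which was 1228 and 1122 CPM for COL6A1 and 1061 and 877 CPM for COL6A2 before division by length.

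Among the FACIT genes, COL19A1 and COL22A1 rose in both lines. COL19A1, which encodes a chain found at basement membrane zones (ENSG00000082293, chromosome 6, 69866571 to 70209976, plus strand), had 35.1 and 32.5 CPM on drug in A375, 168 and 166 at 6 h, 99.0 and 103 at 24 h and 77.2 and 73.4 at 48 h. COL19A1 in 451Lu went from 8.92 and 8.47 CPM to 65.2 and 68.4, 92.1 and 102, then 124 and 131 CPM. Its highest A375 libraries were thus those of 6 h and its highest 451Lu libraries those of 120 h. The log2 changes there were 2.26 ± 0.06 (adjusted p = 2.74e-27) and 3.86 ± 0.09 (adjusted p = 1.21e-15), and the A375 fall from 6 h to 24 h was -0.72 ± 0.05 (adjusted p = 2.17e-14).

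COL22A1, a collagen of tissue junctions such as that of muscle and tendon, had 0.331 and 0.384 CPM on drug in A375, 2.81 and 2.95 at 6 h, 41.2 and 37.5 at 24 h and 15.7 and 14.7 at 48 h. In 451Lu it had 0 and 0.406 CPM on drug, 0.646 and 0.514 at 24 h, 11.9 and 8.68 at 72 h and 59.6 and 37.5 at 120 h. A375 peaked at 24 h with a log2 change of 6.72 ± 0.18 (adjusted p = 4.34e-27), and 451Lu was highest at 120 h with 7.72 ± 0.38 (adjusted p = 1.51e-11). Without replicate 1 on drug the 451Lu change at 120 h was 6.85 and without replicate 2, which leaves 0 counts on drug, it was 12.12. At 72 h the corresponding values were 4.61 and 9.89, beside 5.48 with all libraries.

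COL14A1, which binds type I fibrils, fell in both lines. It went from 5.02 and 4.54 CPM to 2.39 and 4.02, 0.302 and 0.409, then 0.088 and 0.0862 CPM in A375. In 451Lu it went from 2.18 and 3.77 CPM to 1.15 and 1.37, 0.449 and 0.998, then 0.171 and 0.579 CPM. Off-drug libraries lay below on-drug ones at every time. At 48 h 2 counts stood against 162 in A375, a 55.1-fold lower level (counting interval 15.02 to 459). In 451Lu the 120 h log2 change was -3.03 ± 0.49 (adjusted p = 3.78e-05), or -2.42 and -4.13 without replicate 1 or 2 of that group, and the 72 h change of -2.01 was -2.75 without the library that stood apart. The first calls were less firm: at 6 h in A375 (-0.63) the call was lost without replicate 1 on drug (adjusted p = 0.0781) or of the 6 h group (0.319), and at 24 h in 451Lu (-1.23) without replicate 2 on drug (adjusted p = 0.205) or replicate 1 of the 24 h group (0.0761).

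The remaining FACIT genes were mixed. COL12A1, another binder of type I fibrils, had 11.9 and 11.01 CPM on drug in A375, 17.0 and 16.7 at 6 h, 7.24 and 7.12 at 24 h and 5.10 and 5.52 at 48 h, so it was higher at 6 h (0.52 ± 0.11, adjusted p = 7.93e-05) and lower at 48 h (-1.14 ± 0.14, adjusted p = 8.94e-09). In 451Lu COL12A1 had 3.81 and 3.94 CPM on drug, 1.36 and 1.80 at 24 h, 3.59 and 5.09 at 72 h and 3.00 and 3.76 at 120 h, and only the 24 h change was called (-1.28 ± 0.27, adjusted p = 0.000687). Its 72 h value of 0.18, not called, was -0.14 without replicate 2. COL16A1, a collagen of fibril surfaces, fell in A375 from 14.1 and 15.4 CPM to 10.9 and 10.8, 10.3 and 8.43, then 4.66 and 5.52 CPM (last log2 change -1.56 ± 0.14, adjusted p = 8.97e-12). COL16A1 in 451Lu went the other way, from 0.681 and 0.870 CPM to 1.01 and 0.600, 1.46 and 2.00, then 1.97 and 1.74 CPM. The 120 h change was 1.22 ± 0.36 (adjusted p = 0.00626), lost without replicate 1 on drug (adjusted p = 0.0537) or replicate 1 at 120 h (0.0613). The 72 h call (1.15 ± 0.38, adjusted p = 0.014) was lost without replicate 1 on drug (0.0864) or replicate 2 at 72 h (0.167).

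Type IX collagen decorates the fibrils of cartilage, and its 3 genes did not move as a unit. COL9A3 was among the leading genes of both lines, with 71.0 and 70.9 CPM on drug in A375, 63.4 and 62.3 at 6 h, 64.8 and 56.6 at 24 h and 69.2 and 63.4 at 48 h. In 451Lu it had 115 and 117 CPM on drug, 66.8 and 61.6 at 24 h, 98.3 and 119 at 72 h and 166 and 136 at 120 h. It was therefore lower at 24 h in 451Lu (-0.83 ± 0.09, adjusted p = 1.26e-06) and higher at 120 h (0.37 ± 0.09, adjusted p = 0.00129), the latter not called without replicate 1 at 120 h (adjusted p = 0.0843). At 72 h COL9A3 was not called (-0.09), and without replicate 2 it was called lower (-0.27, adjusted p = 0.0368). COL9A1 fell in A375 from 7.67 and 7.74 CPM to 6.64 and 4.92, 4.16 and 3.52, then 2.02 and 1.55 CPM, a last log2 change of -2.14 ± 0.22 (adjusted p = 9.6e-11). In 451Lu COL9A1 had 0.544 and 0.464 CPM on drug and 0 to 0.0857 CPM off drug, at least 3.68-fold lower at 120 h. COL9A2 was tested in both lines, lay between 3.49 and 8.62 CPM in A375 and between 0.580 and 2.80 CPM in 451Lu, and was called higher at 48 h in A375 and at 72 and 120 h in 451Lu. COL9A3 overlaps TCFL5 on the opposite strand at its end only, since COL9A3 ends at 62841159 and TCFL5 begins at 62841115. In 451Lu TCFL5 itself had 91.9 and 94.3 CPM on drug, 39.2 and 47.3 at 24 h, 53.0 and 49.6 at 72 h and 54.8 and 54.8 at 120 h. Both genes were thus lower at 24 h than on drug, while at 120 h COL9A3 was above its on-drug level and TCFL5 below. The part of the overlap in the COL9A3 counts was not tested.

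Of the multiplexins, COL15A1 went in opposite directions in the lines and COL18A1 rose in both. COL15A1 had 4.86 and 3.01 CPM on drug in A375, 2.39 and 1.70 at 6 h, 0.121 and 0.164 at 24 h and 0.352 and 0.948 at 48 h. In 451Lu it had 1.63 and 1.22 CPM on drug, 4.60 and 5.32 at 24 h, 43.7 and 40.3 at 72 h and 38.2 and 46.7 at 120 h. A375 libraries off drug were all below those on drug and 451Lu libraries off drug all above. The log2 change at 24 h was -4.79 ± 0.47 in A375 (adjusted p = 3.81e-11) and 1.83 ± 0.25 in 451Lu (adjusted p = 1.17e-05), and at the last times -2.63 ± 0.36 and 4.88 ± 0.17 (adjusted p = 5.96e-08 and 1.99e-13). Without replicate 2 at 48 h the A375 value was -3.50, and the 6 h call (-0.995) was lost without replicate 1 on drug (adjusted p = 0.122).

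COL18A1, whose tail is the source of endostatin, had 19.3 and 21.3 CPM on drug in A375, 36.5 and 35.0 at 6 h, 47.7 and 43.4 at 24 h and 28.6 and 28.4 at 48 h. In 451Lu it went from 2.52 and 1.68 CPM to 4.09 and 3.17, 7.75 and 7.28, then 12.5 and 10.04 CPM. Off-drug libraries were above on-drug ones in both lines. The change was 1.14 ± 0.08 at 24 h in A375 (adjusted p = 3.24e-15) and 2.43 ± 0.21 at 120 h in 451Lu (adjusted p = 2.25e-08). The 24 h call in 451Lu (0.85 ± 0.25, adjusted p = 0.00966) was lost without replicate 2 on drug (adjusted p = 0.134) or replicate 1 at 24 h (0.125). The 24 h changes of COL18A1 in the lines differed by 0.35 ± 0.26 (adjusted p = 0.281), which did not pass the test. COL18A1 overlaps SLC19A1 on the opposite strand, and that gene fell in 451Lu, from 33.2 and 36.3 CPM on drug to 9.60 and 9.36 at 120 h, while COL18A1 rose. In A375 both genes were higher at 6 h, SLC19A1 going from 40.4 and 44.7 CPM on drug to 76.8 and 72.6. SLC19A1 then had 52.6 and 47.4 CPM at 24 h, where COL18A1 was highest, and 42.3 and 41.1 at 48 h. The part of the overlap in the COL18A1 counts was not tested.

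COL10A1, the network-forming collagen of hypertrophic cartilage, appeared in 451Lu only. It had 0 counts in all A375 libraries and on drug in 451Lu, 0.0718 and 0.0857 CPM at 24 h, 9.55 and 4.49 CPM at 72 h and 13.5 and 9.36 CPM at 120 h. The 120 h level was at least 123-fold and the 72 h level at least 73.1-fold above the on-drug group (adjusted p = 6.55e-09 and 1.27e-07). COL10A1 lies inside NT5DC1 on the opposite strand. In 451Lu NT5DC1 had 68.4 and 66.5 CPM on drug, 46.7 and 55.6 at 24 h, 66.9 and 69.9 at 72 h and 49.3 and 55.3 at 120 h. From 24 h to 72 h both genes were higher, and from 72 h to 120 h NT5DC1 was lower. The part of the overlap in the COL10A1 counts was not tested.

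COL7A1, the collagen of the anchoring fibrils that tie epidermis to dermis, had 1.82 and 2.11 CPM on drug in A375, 3.75 and 3.31 at 6 h, 2.41 and 1.47 at 24 h and 2.90 and 2.76 at 48 h. In 451Lu it went from 0.408 and 0.406 CPM to 0.646 and 1.20, 1.91 and 2.095, then 3.60 and 3.09 CPM. Groups of 72 h and 120 h in 451Lu did not overlap with the on-drug group, and the 120 h change was 3.00 ± 0.36 (adjusted p = 1.37e-06). In A375 only the 6 h change was called (0.81 ± 0.25, adjusted p = 0.00418), and not without replicate 1 at 6 h (adjusted p = 0.0515). The 24 h call in 451Lu (adjusted p = 0.0481) did not hold without either on-drug library (0.13 and 0.153) or without replicate 2 at 24 h (0.385).

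Of the transmembrane collagens, COL13A1 rose and COL25A1 fell. COL13A1 is known from the neuromuscular junction. It had 0.221 and 0.128 CPM on drug in A375, 1.36 and 0.894 at 6 h, 1.39 and 2.04 at 24 h and 3.08 and 2.67 at 48 h, a last log2 change of 3.91 ± 0.45 (adjusted p = 1.38e-09). In 451Lu COL13A1 had 0 counts on drug, 0.287 and 0.257 CPM at 24 h, 2.02 and 1.90 at 72 h and 2.83 and 0.869 at 120 h, at least 20.3-fold higher at 120 h (adjusted p = 1.66e-05). The fitted 120 h change of 7.53 was 6.40 without replicate 1 of that group, and the 24 h call (adjusted p = 0.0287, at least 2.91-fold) was lost without any one of the 4 libraries (adjusted p from 0.0558 to 0.119).

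COL25A1, known from amyloid plaques and developing muscle, had 11.1 and 10.05 CPM on drug in A375, 11.2 and 8.85 at 6 h, 4.76 and 4.99 at 24 h and 3.78 and 4.57 at 48 h. In 451Lu it went from 2.52 and 3.02 CPM to 1.51 and 2.06, 1.24 and 1.497, then 1.20 and 1.93 CPM. The last log2 changes were -1.37 ± 0.16 in A375 (adjusted p = 3.5e-09) and -0.86 ± 0.30 in 451Lu (adjusted p = 0.0173). The 120 h call was lost without replicate 2 on drug (adjusted p = 0.119) or replicate 1 at 120 h (0.17), and the 72 h call (-1.01 ± 0.32, adjusted p = 0.0112) without replicate 2 on drug (0.0825) or replicate 1 at 72 h (0.0704).

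The 15 members that were tested in neither line had at most 9 counts in any library and a group mean of at most 0.820 CPM. They were COL1A2, COL3A1, COL4A3, COL4A6, COL5A1, COL6A6, COL8A1, COL8A2, COL11A1, COL17A1, COL20A1, COL21A1, COL23A1, COL26A1 and COL28A1. At this depth a count of 0 in a library allows 0.180 to 0.309 CPM of raw counts, so low transcription of these genes was not detectable.

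Over consecutive times, 8 collagen genes were higher and 12 lower at 24 h against 6 h in A375 (69.8% of all genes called, as 35.5% higher and 34.2% lower), and 4 higher and 10 lower at 48 h against 24 h (29.9%, as 14.2% and 15.7%). The count of 4 was 2 without replicate 2 at 24 h or replicate 2 at 48 h. COL5A3, COL22A1, COL19A1 and COL6A3 were all among the 10 that fell after 24 h. In 451Lu 15 were higher and 2 lower at 72 h against 24 h (51.4%, as 25.9% and 25.5%), and 8 higher and 1 lower at 120 h against 72 h (32.7%, as 16.6% and 16.1%). The 1 lower gene was COL6A5 (-2.13 ± 0.14, adjusted p = 2.35e-08), and this count was 2 or 3 without any one of the 4 libraries. COL22A1 gained most between 72 and 120 h (2.24 ± 0.22, adjusted p = 1.25e-06).

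The lines share no libraries, so their calls can be set side by side. Of the 20 collagen genes tested in both, 8 (40%) were higher and 4 (20%) lower in both lines at 24 h, and 1 (5%), COL15A1, was called in opposite directions. Over all 12814 genes tested in both the shares were 18.6%, 13.9% and 10.9%. At the last times 11 (55%) were higher in both, 2 (10%), COL14A1 and COL25A1, lower in both and 3 (15%) opposite, against 18.5%, 16.5% and 21.7% of all genes. The 3 with opposite calls were COL15A1, COL16A1 and COL27A1. The test of the difference between the 24 h changes of the lines called 7 collagen genes with a more positive change in A375 and 3 with a more negative one, of 29 tested (background 49.4%, as 27.4% and 22%). Of these 29, 7 passed the filter within A375 only and 2 within 451Lu only, so their change in the other line rests on few or no counts. The genes called were all among the 20 tested in both lines.

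The machinery that makes collagen was followed through 4 lists, which add up to 48 genes. For chain modification and folding, 12 of 17 tested genes were higher and 3 lower at 48 h in A375, and 15 of 17 higher and 2 lower at 120 h in 451Lu, with median log2 changes of 0.40 and 0.94 beside 0.00 for all genes. Over all genes tested 36.6% were higher and 36% lower at 48 h in A375, and 37.3% and 36.6% at 120 h in 451Lu. The lists as sets were not tested against these shares. Every list gene named below as risen or fallen passed the threshold, the weakest being LOXL3 in 451Lu (adjusted p = 0.0106). P4HA2, a catalytic subunit of the prolyl 4-hydroxylase that stabilises the triple helix, rose from 43.0 and 37.1 to 309 and 316 CPM in A375 (log2 change 2.93 at 48 h) and from 82.8 and 86.0 to 570 and 552 CPM in 451Lu (2.72 at 120 h). P4HA1, its close relative, rose in both lines (1.33 and 1.82), and P4HA3 rose in A375 from 0.828 and 0.832 to 9.77 and 9.31 CPM. PLOD2, a lysyl hydroxylase, went from 83.6 and 80.4 to 937 and 897 CPM in 451Lu, and from 34.5 and 33.3 down to 21.9 and 21.9 CPM in A375. LEPREL1, a prolyl 3-hydroxylase, rose by 5.29 log2 units in 451Lu. In the same line P4HB, PLOD1 and LEPREL2, further enzymes of this list, rose by 1.20, 1.32 and 1.18.

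SERPINH1 encodes HSP47, the chaperone of the endoplasmic reticulum that binds procollagen. It had 1 count over all 8 A375 libraries, beside 93.1 and 91.5 CPM on drug in 451Lu, 97.8 and 87.9 at 24 h, 139 and 132 at 72 h and 178 and 153 at 120 h. On drug 1 count in A375 stood against 2945 in 451Lu, a ratio of 3112 (counting interval 558 to 122968). It was the one gene of the 18 on this list that was not tested in A375.

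For processing and cross-linking, 6 of 9 tested genes were higher and 3 lower at 48 h in A375, and all 7 tested were higher at 120 h in 451Lu, with medians of 0.44 and 2.24. The shares of all genes beside these were 36.6% higher and 36% lower in A375, and 37.3% and 36.6% in 451Lu. LOXL2, which cross-links collagen, went from 1.63 and 1.51 to 276 and 245 CPM in 451Lu (7.35 log2 units at 120 h) and from 19.6 and 16.9 to 49.6 and 49.0 CPM in A375 (1.39). LOXL4, of the same family, was an A375 gene with 109 and 101 CPM on drug, 95.2 and 90.5 at 6 h, 154 and 155 at 24 h and 49.4 and 41.5 at 48 h, and it had 1 count in all 451Lu libraries. LOX itself had at most 4 counts in any library. BMP1, the procollagen C-proteinase, rose by 2.51 log2 units in 451Lu, as did the N-proteinase ADAMTS3 (2.29) and LOXL3 (1.17). ADAMTS2, another N-proteinase, rose in A375 by 1.73 and had 0 counts in 451Lu.

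Of the collagen receptors and uptake genes, 6 of 8 tested were higher and 1 lower at 48 h in A375, and 8 of 9 higher and 1 lower at 120 h in 451Lu, with medians of 1.03 and 5.44. The background was again 36.6% higher and 36% lower in A375, and 37.3% and 36.6% in 451Lu. The receptor DDR2 fell in A375 from 218 and 201 CPM to 53.6 and 52.8 within 6 h and stood at 46.9 and 43.3 CPM at 48 h, whereas in 451Lu it rose from 119 and 123 to 277 and 308 CPM. ITGA2, a collagen-binding integrin subunit, rose from 27.1 and 27.0 to 191 and 174 CPM in A375 and from 6.47 and 4.64 to 488 and 440 CPM in 451Lu. ITGA10, of the same group, rose by 2.67 and 5.44 log2 units. DDR1 and ITGB1 rose in 451Lu at every time (2.88 and 2.90 at 120 h), and GPR56 fell there (-1.02). MRC2, an uptake receptor for collagen, had 3 counts on drug in 451Lu and 1609 at 120 h, a 777-fold higher level (counting interval 266 to 3773).

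Among fibril assembly partners, 2 of 4 tested genes were higher and 2 lower at 48 h in A375, and 5 of 6 higher and 1 lower at 120 h in 451Lu, with medians of -0.62 and 4.01. Beside them stood 36.6% of all genes higher and 36% lower in A375, and 37.3% and 36.6% in 451Lu. So few genes say little about the list as a set. FN1, whose fibronectin matrix guides collagen deposition, went from 644 and 707 to 72444 and 72830 CPM in 451Lu. BGN, a small proteoglycan of fibrils, rose from 0.136 and 0.174 to 51.4 and 34.8 CPM, on 5 counts on drug. SPARC, a collagen-binding protein, rose in A375 (1.63), and LUM, another small proteoglycan, fell in both lines (-3.03 and -4.60). THBS1 was 4.03 log2 units higher at 6 h in A375 and lower at 48 h (-1.67), and higher at 120 h in 451Lu (2.68).

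**Figure D5:**
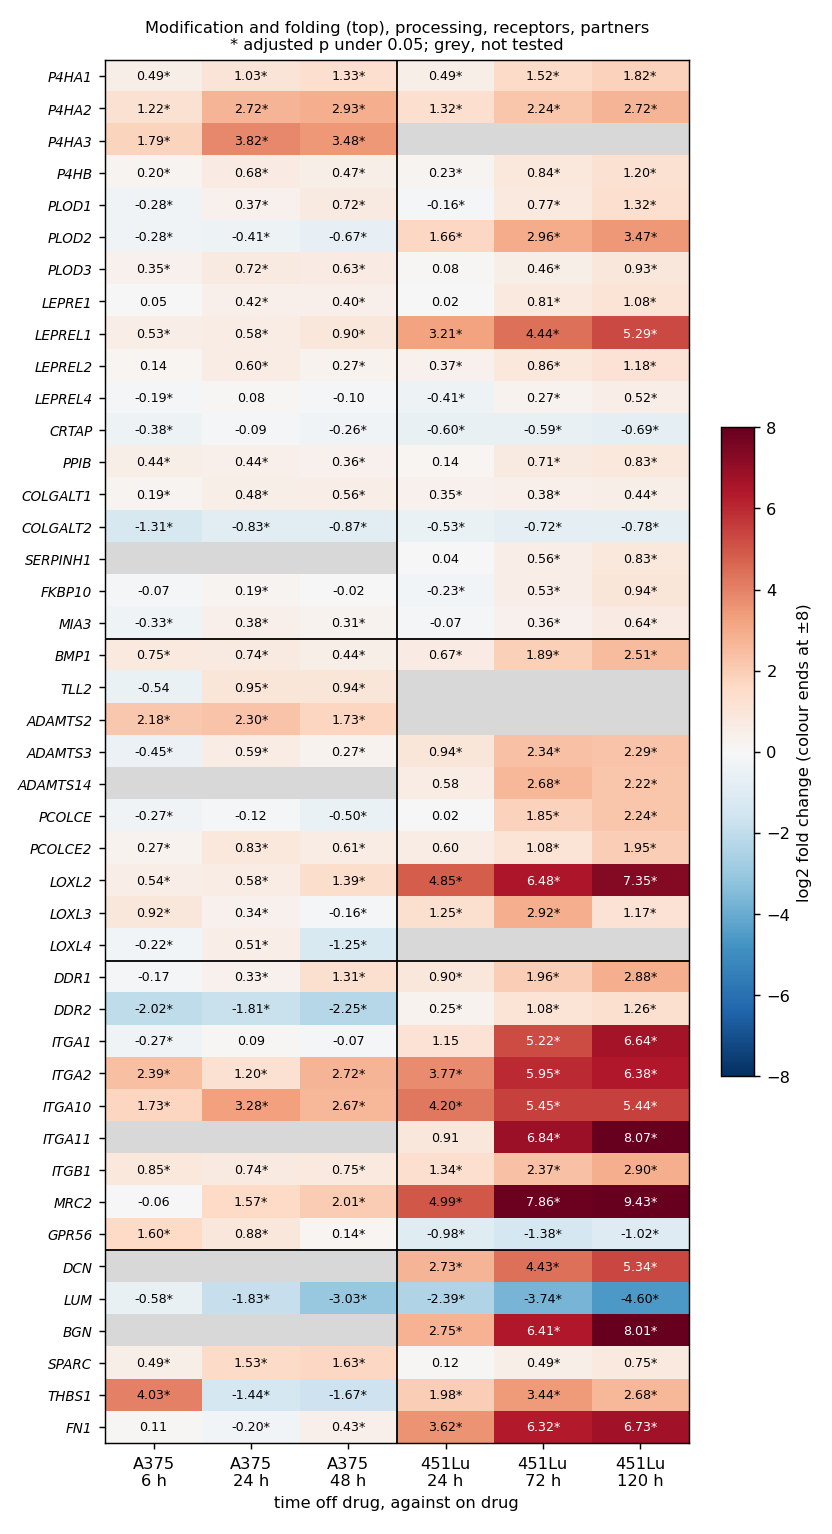
Log2 fold change off drug against on drug (colour and number, asterisk for an adjusted p under 0.05) for the tested genes of 4 lists, with 3 times per line; black lines divide modification and folding, processing, receptors and assembly partners, and grey cells were not tested. In 451Lu the receptor block reaches 9.43 for MRC2, which rests on 3 counts on drug, and in A375 DDR2 and LUM are lower at all 3 times.

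Markers of other cell types were read beside these results. The summed level of 6 fibroblast markers went from 24.4 and 24.3 to 4.58 and 5.09 CPM in A375 and from 154 and 139 to 79.1 and 60.4 CPM in 451Lu, where LUM made up most of the on-drug sum. In 451Lu, PDGFRA, PDGFRB and DCN rose, to 26.5 and 13.6, 40.9 and 36.9, and 5.40 and 2.99 CPM at 120 h, and THY1 had 0 counts in every 451Lu library. The 3 endothelial markers with a row summed to 0.953 and 1.10 CPM on drug and 119 and 119 CPM at 120 h in 451Lu, nearly all of it PECAM1 (118 and 117 CPM), while VWF was at most 1.10 CPM and KDR at most 1.80 CPM in that line. The epithelial sums lay between 17.1 and 65.6 CPM, and the immune sums were at most 2.81 CPM. The epithelial sum hides opposite moves in 451Lu, where 1 of the 2 tested markers was called higher and 1 lower at 120 h. CDH1 fell there from 347 counts on drug to 3 at 24 h and 0 at 120 h, at least 79.8-fold lower for counting error only. The part of these genes in the collagen changes was not tested. DCN and LUM also stand in the list of assembly partners.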

How the data were processed

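RNA-seq counts per gene were read in 16 libraries, 2 for each of 8 groups. The deposited table holds whole-number counts that the authors made from reads aligned to GRCh38 with TopHat2 2.1.0 and Bowtie 1.0.0, per the submitters' processing notes; the counting tool, its strand setting and the annotation release were not given in the sources used here. Libraries held 9714190 to 16691725 counts, and the 2 libraries of a group differed by more than sampling noise (chi-square per degree of freedom 1.29 to 6.03). Groups came from the labels.

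Each line was fitted on its own 8 libraries with edgeR 4.0.16 (limma 3.58.1, R 4.3.3): TMM scaling, filterByExpr (minimum count 10, total 15), the quasi-likelihood F test with 4 residual degrees of freedom, and Benjamini-Hochberg adjustment at 0.05. SE is the absolute log2 change over the square root of F. Comparisons of the lines used 1 fit of all 16 libraries. The difference between the line scale and the common CPM scale was at most 3.64%. The fits were also run on simulated counts drawn with the same spread for every gene of a line, and no result here rests on that. Folds against 0 counts are lower bounds from 3 counts over the 2 libraries, and for 1 to 3 counts the ratio has an exact 95% interval; intervals and bounds cover counting error only. Levels per kilobase use the longest coding GENCODE transcript. Promoter sequences are RefSeq's for GRCh38.

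Values in every library are given for the 28 members that reached a group mean of 10 CPM or were called with an absolute log2 change of at least 2 off drug. List genes are named where called at every time of a line with an absolute log2 change of at least 1 at the last. SERPINH1, LOX and markers were named after their values were seen. The members and the lists were chosen with earlier results of these data known. Alternatives were RLE scaling, DESeq2 1.42.0, no filter, a minimum count of 30, a replicate block, a test against a 1.5-fold change, the joint fit, each library left out in turn, and 2 other denominators for shares.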

Additional observations from a re-analysis of the deposited data

Results flagged for a closer look

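For 10 collagen genes the 24 h change off drug differed between the lines in a test of the difference itself (edgeR's quasi-likelihood test on all 16 libraries, Benjamini-Hochberg adjusted over 15481 genes; values are the log2 change in A375 minus that in 451Lu). The change was more negative in A375 for COL15A1 (-6.55 ± 0.56, adjusted p = 3.45e-10), the multiplexin that fell in A375 and rose in 451Lu, for COL14A1 (-2.48, adjusted p = 0.00111), which fell in both, and for COL19A1 (-1.36, adjusted p = 2.05e-10), which rose in both.

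It was more positive in A375 for COL5A3 (3.58 ± 0.53, adjusted p = 2.91e-06), COL11A2 (1.69, adjusted p = 0.000836), COL27A1 (1.02, adjusted p = 5.96e-07), COL6A2 (0.68, adjusted p = 5.21e-05) and COL9A3 (0.64, adjusted p = 9.82e-05). COL22A1 also stood at 5.38 ± 1.41 (adjusted p = 0.00237), but without replicate 2 of 451Lu on drug, which leaves 0 counts there, it was 0.84 (adjusted p = 0.888), and without replicate 1 it was 6.24. The COL5A2 difference of 0.77 (adjusted p = 0.0126) was lost without replicate 1 of 451Lu on drug (0.65, adjusted p = 0.0882) or replicate 1 at 24 h (0.58, adjusted p = 0.178). COL6A1 (-0.07, adjusted p = 0.642) and COL6A3 (0.83, adjusted p = 0.388) did not pass this test. The same 24 h follows 2 drugs in A375 and 1 drug in 451Lu, so line and drug cannot be told apart.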

How the results depend on the processing

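With TMM-adjusted library sizes as the denominator, the shares at the last time over those on drug were 1.10 (fibrillar), 1.17 (basement membrane) and 2.06 (other) in A375. In 451Lu they were 10.3 for fibrillar and 10.3 for other genes. With all counts as the denominator, the fibrillar value in A375 was 0.946. There the basement membrane shares overlapped, with 0.0405% and 0.0407% on drug and 0.0418% and 0.0395% at 48 h. Counts of collagen genes moved most in the test against a 1.5-fold change, which asks for larger effects. In A375 it left 9 higher and 0 lower at 6 h, 7 lower at 24 h, 5 higher and 6 lower from 6 to 24 h, and 0 higher and 3 lower from 24 to 48 h. In 451Lu it left 2 lower at 24, 72 and 120 h each, 0 lower from 24 to 72 h and 1 higher from 72 to 120 h, and it left 4 more positive line differences. DESeq2 called 1 lower at 6 h and 1 higher from 24 to 48 h in A375, and 2 lower at 24 h and 2 at 72 h in 451Lu. For 24 to 48 h in A375 the joint fit called 2 higher, and for 72 to 120 h in 451Lu the joint fit called 3 lower and the fit with no filter 3. The causes of these were not tested.

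Leaving out 1 library gave 2 to 3 higher from 24 to 48 h in A375, 2 to 4 lower at 24 h in 451Lu and 2 to 3 lower from 72 to 120 h. Signs turned only for values that were not called: COL11A2 (-0.014 to 1.18) and COL12A1 (-0.14 to 0.38) at 72 h, COL16A1 (-0.35 to 0.39; -0.06 without replicate 1 on drug) at 24 h and COL9A3 (-0.27 to 0.025) at 72 h in 451Lu, COL24A1 (-0.26 to 0.024), COL25A1 (-0.29 to 0.042) and COL2A1 (-0.60 to 0.24; 0.06 without replicate 2 at 6 h) at 6 h in A375, COL6A1 in the line difference (-0.20 to 0.041; 0.0078 and 0.0027 without replicate 2 of A375 at 24 h or replicate 1 of 451Lu on drug), and COL7A1 at 24 h in A375 (-0.0039 with no filter, -0.026 with a minimum count of 30, -0.43 to 0.27 with 1 library left out, -0.10 without replicate 1 on drug). COL9A3 at 72 h was called without replicate 2. Of 160 values for single genes, 142 kept direction and call with DESeq2 and 159 with RLE scaling.

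The labels carry a replicate letter through each time course and do not say what it marks. Deviations of same-numbered libraries correlated at -0.040 to 0.023 in A375, at -0.020 to 0.0099 between 451Lu on drug and off drug, and at 0.134 to 0.138 among the 3 off-drug groups of 451Lu, a hint of pairing there that the other groups do not share. The replicate block moved the calls over all genes from 72 to 120 h in 451Lu from 2297 higher and 2234 lower to 2551 and 2490. With the replicate block 2 collagen genes were lower from 72 to 120 h in 451Lu in place of 1, COL7A1 at 24 h in A375 was -0.0073, and 159 of the 160 values kept direction and call. With 2 libraries a group, genes under about 1 CPM rest on a few counts.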
